A study of Mus musculus with 36 samples.

Results

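The BCL2 family genes described here are the 10 members Bcl2, Bcl2l1, Mcl1, Bcl2l11, Bbc3, Pmaip1, Bax, Bak1, Bid and Bmf, chosen by gene name from the 56748 genes of the count table. All 10 passed the filter on low counts in each of the 20 comparisons below. Their transcripts were measured by RNA-seq of CD4+ T cells from 2 mouse lines, both of mixed genetic background, and each KO group was set against WT cells of littermates. In the HP1a line the gene for HP1α (Cbx5) had been deleted in the germ line with a CMV-cre transgene, so the deletion was not limited to T cells, and WT cells came from Hp1a +/+ mice. In the HP1g line the gene for HP1γ (Cbx3) was floxed and deleted by Cd4-cre, which acts in T cells from the thymus on, and WT cells carried the floxed alleles without Cre. HP1 proteins are readers of methylated histone H3 that help keep heterochromatin silent. Naive cells were CD4+ T cells of the spleen enriched by magnetic beads. Tconv were naive conventional CD4+ T cells transferred into irradiated B6 hosts together with B6 and B6D2F1 bone marrow, and sorted from the spleen 3 weeks later as Vβ6+ cells, which recognise a superantigen of the B6D2F1 donor. For Tconv with Treg the graft also held WT Treg expanded ex vivo from Foxp3-Thy1.1 reporter mice, and the sort took Thy1.1- cells to leave those out. Each of the 12 groups had 3 libraries, except HP1g KO Tconv with Treg, which has 2 here because its replicate 3 was left out.

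Proteins of the BCL2 family decide whether the outer membrane of the mitochondrion stays intact. BCL2, BCL-XL (from Bcl2l1) and MCL1 keep a cell alive by binding the proteins that would open it. BAX and BAK form the pores that release cytochrome c. The BH3-only proteins BIM (from Bcl2l11), PUMA (Bbc3), NOXA (Pmaip1), BID and BMF sense stress or loss of survival signals, and they act by occupying the groove of the survival proteins or by engaging BAX and BAK. Naive T cells depend on BCL2 sustained by IL-7, activated T cells raise BCL-XL after costimulation, and BIM is a main executor of the contraction of a T cell response.

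What joins the 3 classes is the BH3 helix, through which they bind each other. The stretch that codes for it is shown for 6 members, chosen to let the survival proteins, the BH3-only proteins and an effector be compared. The sequences were read from GENCODE M39 canonical transcripts on GRCm39, each lies within 1 exon, and the capitals mark the codons of the conserved core, which was searched as leucine, any 2 residues, then alanine, isoleucine, methionine or valine, then glycine or alanine, then aspartate.
Bcl2 (anti-apoptotic, minus strand, chr1:106640305-106640340): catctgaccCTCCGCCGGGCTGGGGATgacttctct
Bcl2l1 (anti-apoptotic, minus strand, chr2:152671617-152671652): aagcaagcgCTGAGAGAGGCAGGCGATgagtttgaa
Mcl1 (anti-apoptotic, plus strand, chr3:95566738-95566773): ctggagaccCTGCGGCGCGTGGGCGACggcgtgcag
Bcl2l11 (BH3-only, plus strand, chr2:127989061-127989096): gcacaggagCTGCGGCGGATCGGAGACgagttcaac
Bbc3 (BH3-only, plus strand, chr7:16047689-16047724): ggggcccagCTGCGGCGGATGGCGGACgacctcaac
Bax (effector, minus strand, chr7:45115421-45115456): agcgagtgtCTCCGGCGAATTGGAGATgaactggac

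The core was written after the known family, so its presence in 10 of 10 members is a description. It was also found in 5.76% of 21770 canonical proteins. Bcl2 and Bcl2l1 have alanine codons at the fourth position of the core, where Bcl2l11 and Bax have isoleucine, Mcl1 valine and Bbc3 methionine. Pmaip1 holds 2 matches, and its mouse protein is known to carry a pair of BH3 regions.

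The 35 libraries held 37029519 to 63042245 estimated counts each, with 20158 to 23340 genes detected. Levels are CPM, estimated counts scaled to a common library size with TMM factors. The 8 CD4+ T cell identity genes summed to 4260 to 7220 CPM in every library, and all 8 had a mean of at least 1 CPM in each group. Lists of other cells varied more: 10 B cell genes summed to 4.51 to 65.7 CPM, 10 myeloid genes to 6.42 to 506 CPM, 6 erythroid genes to 1.8 to 6140 CPM and 4 CD8 or NK genes to 7.08 to 30.2 CPM. Cbx5 and Cbx3 were lower in every KO library than in every WT library in each of the 6 line and condition pairs, yet transcript remained. At the protein level, the paper reports that naive KO cells had no HP1α and almost no HP1γ. The transcript levels are therefore no measure of the protein left. Cbx5 had means of 10.9, 15.3 and 18 CPM in KO and 22.3, 28.4 and 47.4 CPM in WT cells (naive, Tconv, Tconv with Treg), and Cbx3 71.4, 68.9 and 61 CPM in KO and 141, 94 and 88.3 CPM in WT cells. A pair of libraries stood apart. In HP1a WT Tconv with Treg replicate 3, the 10 most abundant genes took 9.34% of the counts and the median correlation with its group was 0.912. In HP1g WT naive replicate 2 they took 7.39%. The labels give no batch or date, but they name the naive and the grafted libraries of each line as separate numbered series, so a difference between these series and one between conditions or lines cannot be told apart. The labels do not say that replicates came from separate mice, and the p-values then measure only the spread between these libraries. In bulk samples, fewer cells with a transcript and less of it per cell cannot be told apart.

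Levels of different genes were compared only per length, as CPM per kilobase of the canonical transcript. Genes outside the members were not compared in this way. Mcl1 was the most abundant survival gene among the members. Its group means were 230 to 354 CPM per kb in naive and 152 to 252 in grafted cells. Bcl2 followed with 38.3 to 58 CPM per kb in naive and 29.4 to 41.4 in grafted cells. Bcl2l1 stood at 6.39 to 7.78 CPM per kb in naive cells, below each Bcl2 group mean, and at 11 to 34.7 in grafted cells. The effector Bax exceeded Bak1 in all groups, with 106 to 251 against 0.54 to 2.99 CPM per kb, so BAX was by far the more abundant effector transcript of the pair. Among BH3-only members the order in naive cells was Bcl2l11 (15.3 to 20.3 CPM per kb), Bid (10.6 to 13), Bbc3 (8.61 to 9.71), Pmaip1 (0.635 to 1.59) and Bmf (0.129 to 0.4). Single libraries of Bcl2l11 (from 10.3) overlapped those of Bid (up to 15.7), and those of Bid (from 9.36) overlapped those of Bbc3 (up to 10.9), so these neighbours did not separate beyond their spread. In grafted cells Pmaip1 was the highest BH3-only member, at 23 to 66.6 CPM per kb. Its lowest library (21.6) was above the highest library of each other BH3-only member (20.4, for Bbc3).

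**Figure D1:**
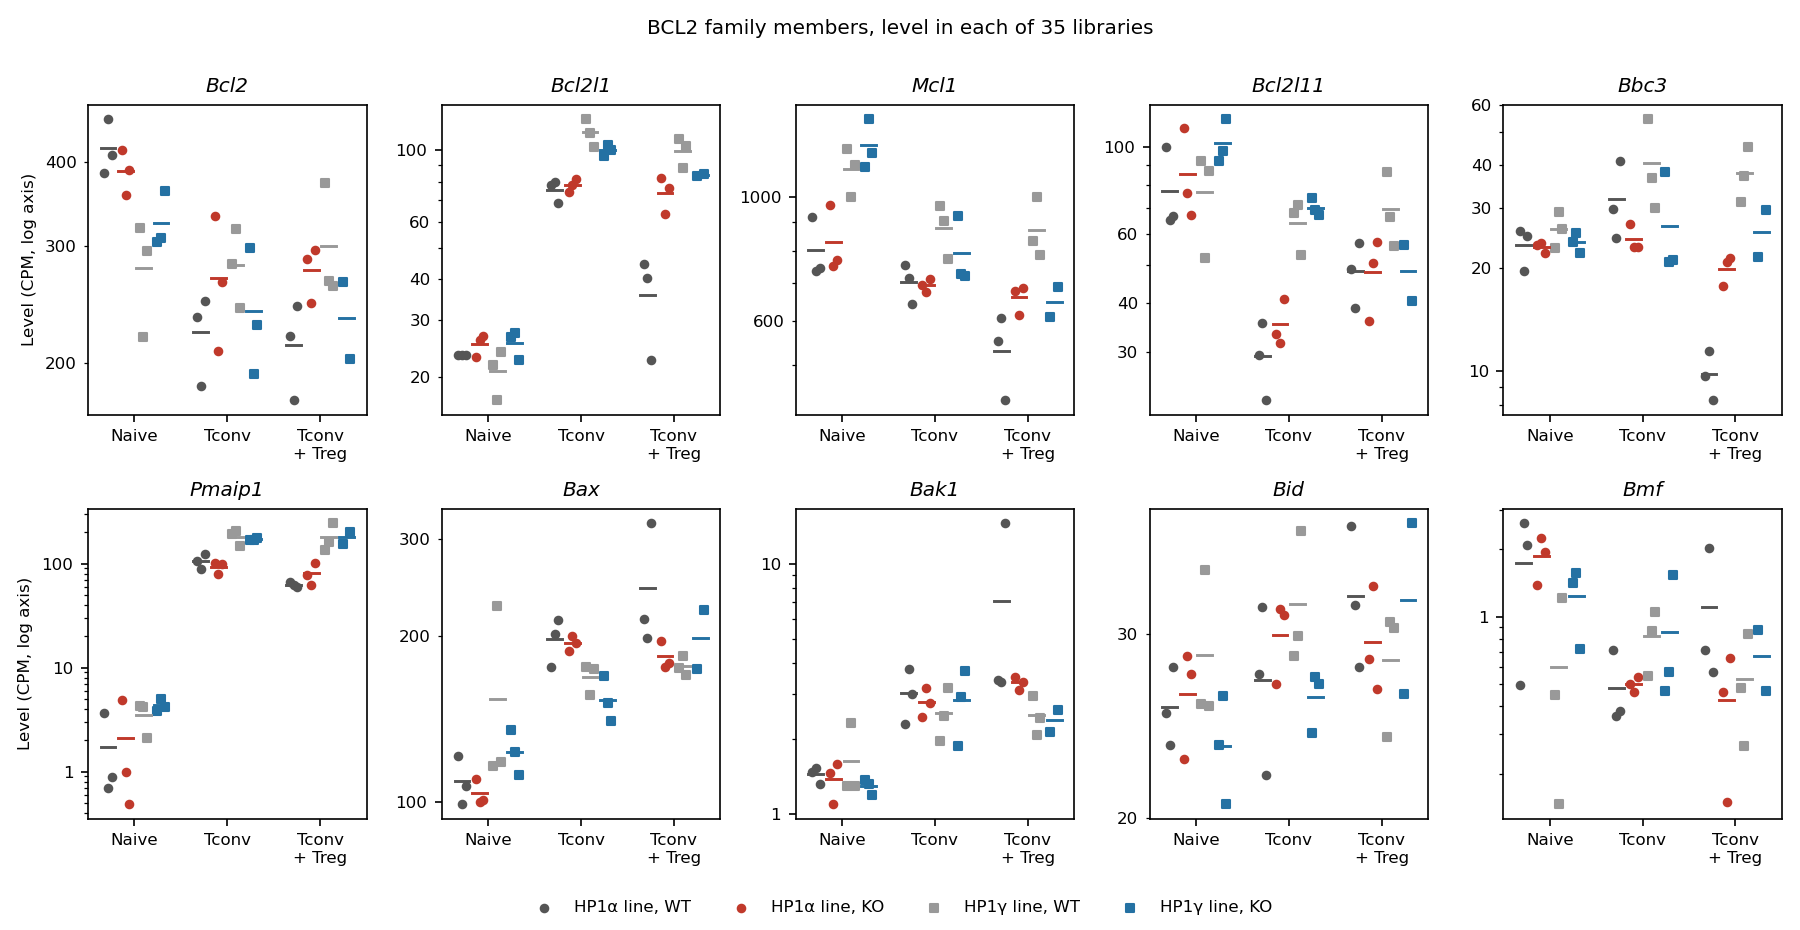
Level of each member in CPM (log axis) in naive cells, Tconv and Tconv with Treg, with 1 point per library and a bar at the mean of each group, for WT and KO cells of the HP1a line (circles) and the HP1g line (squares). Pmaip1 lay between 0.483 and 4.97 CPM in the 12 naive libraries and between 59.1 and 248 CPM in the 23 grafted ones, while Bid stayed between 20.6 and 38.4 CPM throughout.

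Tconv recovered after the allogeneic response were compared with naive cells to follow the family through activation. The 2 kinds of cells also differed in sorting, Vβ6 selection and transfer into irradiated hosts, which cannot be told apart from activation. Pmaip1 and Bcl2l1 rose in each line and genotype, one a gene of death and the other a gene of survival. Bcl2l11 fell in 3 of the 4 comparisons and Bcl2 in 2, both of the HP1a line. Bax rose in 3. A member counts as called here with a log2 fold change above 1 in size and an adjusted p (edgeR, quasi-likelihood) under 0.05. The study used the same thresholds with DESeq2, so the shares of all genes given here are not its counts. In HP1a WT cells 5 of 10 members were called, against a background of 23.1% of the 16027 genes tested. In HP1a KO cells 5 were called (background 19.7%), in HP1g WT cells 2 (23.5%) and in HP1g KO cells 3 (23.1%). On the adjusted p alone 7, 7, 2 and 6 members passed, beside 45.7%, 40.6%, 31.4% and 41.1% of all genes. For HP1g WT cells the share of members was no larger than that of all genes.

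Bcl2l1 is induced by costimulation and its protein BCL-XL protects effector T cells. In HP1a WT cells its level was 23.4, 23.3 and 23.4 CPM in naive libraries and 78.2, 79.7 and 68.8 CPM in Tconv. HP1g WT cells had 21.8, 16.9 and 23.9 CPM in naive libraries and 125, 113 and 102 CPM in Tconv. No Tconv library overlapped a naive one. The KO cells showed the same order, with 23, 25.9 and 26.8 against 74.1, 77.9 and 81.4 CPM in HP1a KO cells and 26.5, 27.2 and 22.5 against 96.1, 104 and 100 CPM in HP1g KO cells. The log2 fold changes were 1.70 (SE 0.098) in HP1a WT, 1.64 (SE 0.0881) in HP1a KO, 2.44 (SE 0.182) in HP1g WT and 2 (SE 0.105) in HP1g KO cells. The adjusted p-values of edgeR's quasi-likelihood test were 5.05e-06, 1.93e-05, 6.17e-05 and 2.93e-06.

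Pmaip1 encodes NOXA, a BH3-only protein that binds MCL1 above all. In HP1a WT cells it had 3.62, 0.694 and 0.888 CPM in naive libraries and 105, 87.9 and 123 CPM in Tconv. In HP1a KO cells it had 4.84, 0.994 and 0.483 CPM and then 101, 78.7 and 98.9 CPM. The naive replicate 1 library of both genotypes was higher than the other two, and all Tconv libraries were far above all naive ones. In HP1g WT cells the values were 4.25, 4.17 and 2.11 CPM in naive libraries and 194, 204 and 148 CPM in Tconv. In HP1g KO cells they were 3.86, 4.97 and 4.17 CPM and 169, 170 and 176 CPM. Pmaip1 thus had the widest range of the 10 members, 7.05 on the log2 scale between its lowest and highest group means, against 2.45 for Bcl2l1 and 0.47 for Bid. The log2 fold changes were 5.94 (SE 0.685), 5.49 (SE 0.81), 5.69 (SE 0.329) and 5.33 (SE 0.123) in HP1a WT, HP1a KO, HP1g WT and HP1g KO cells. The adjusted p-values of edgeR's quasi-likelihood test were 0.00105, 0.00273, 1.88e-05 and 5.07e-08. Without naive replicate 1 the log2 fold change was 7.05 in HP1a WT and 7.01 in HP1a KO cells.

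Bcl2 and Mcl1, the survival genes that naive cells already express, did not share the rise of Bcl2l1. Bcl2 had 385, 465 and 410 CPM in HP1a WT naive libraries and 235, 185 and 248 CPM in Tconv, with no overlap (log2 fold change −0.91, SE 0.129, edgeR adjusted p 0.000665). In HP1a KO cells it had 417, 357 and 389 CPM in naive libraries and 332, 209 and 265 CPM in Tconv (log2 fold change −0.52, SE 0.165, edgeR adjusted p 0.0408). This second fall was lost in 5 of 6 fits that left out 1 library (all but Tconv replicate 1), with adjusted p-values of 0.0579 to 0.109 by edgeR. In HP1g WT cells Bcl2 had 319, 219 and 295 CPM in naive libraries and 282, 318 and 242 CPM in Tconv, which overlapped, and its log2 fold change was 0.02 with a 95% interval of −0.43 to 0.46. In HP1g KO cells it had 304, 308 and 362 against 298, 193 and 228 CPM, without overlap, and missed the threshold (log2 fold change −0.42, SE 0.162, edgeR adjusted p 0.067). Mcl1, whose short-lived protein is needed by T cells at all stages, passed as lower in 1 of the 4 comparisons. That was in HP1g KO cells, from 1130, 1380 and 1200 CPM to 925, 728 and 723 CPM (log2 fold change −0.62, SE 0.133, edgeR adjusted p 0.00585). Differences between the lines in these changes were not tested. In HP1a WT cells Mcl1 had 921, 737 and 747 CPM in naive libraries and 755, 716 and 644 CPM in Tconv (log2 fold change −0.18, 95% interval −0.46 to 0.09). It was also lower without overlap in HP1a KO cells (−0.25, 95% interval −0.51 to 0.01) and HP1g WT cells (−0.35, −0.74 to 0.04), and passed in neither.

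Bcl2l11, the gene of BIM, had 99.9, 65 and 66.7 CPM in HP1a WT naive libraries and 29.5, 35.7 and 22.6 CPM in Tconv. In HP1a KO cells it had 112, 76.2 and 67.2 CPM and then 33.4, 31.6 and 41.1 CPM. All Tconv libraries lay below all naive ones in both genotypes, and the log2 fold changes were −1.40 (SE 0.221) and −1.26 (SE 0.209), with edgeR adjusted p-values of 0.00134 and 0.00296. In HP1g KO cells Bcl2l11 fell from 91.9, 97.5 and 118 CPM to 74, 68.9 and 67 CPM (log2 fold change −0.53, SE 0.12, edgeR adjusted p 0.00759), which did not pass in the fit of all 35 libraries (edgeR adjusted p 0.0681). In HP1g WT cells it had 91.9, 52.1 and 86.9 against 67.8, 71.1 and 53 CPM. These overlapped through naive replicate 2, and the log2 fold change was −0.27 with a 95% interval of −0.81 to 0.28. Transcription of Bcl2l11 is known to be driven by FOXO factors. The 250 bases before its upstream start in the RefSeq promoter table hold a match to the FOXO letters TGTTTAC or their reverse complement (capitals), searched on both strands.
Bcl2l11 promoter (plus strand, GRCm38.p6, chr2:128125788-128126037): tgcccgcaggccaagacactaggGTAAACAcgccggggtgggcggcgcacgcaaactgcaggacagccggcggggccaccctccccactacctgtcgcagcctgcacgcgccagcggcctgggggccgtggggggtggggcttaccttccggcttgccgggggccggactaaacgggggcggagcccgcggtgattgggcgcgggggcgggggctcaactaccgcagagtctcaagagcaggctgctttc
Such a match occurred in 3.17% of the 32851 promoter windows of this length, among them 1 window of Bbc3, and it is a description of letters, not a site shown to be bound.

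Bmf, a further BH3-only gene, was near the limit of detection, with 0.146 to 2.63 CPM (6 to 144 counts) over the libraries. It fell in HP1a WT cells from 0.496, 2.63 and 2.09 CPM to 0.71, 0.36 and 0.381 CPM, with naive replicate 1 inside the range of Tconv (log2 fold change −1.84, SE 0.616, edgeR adjusted p 0.0386). The call held only without that library and was lost in the other 5 fits that left out 1 library (edgeR adjusted p 0.0549 to 0.131). In HP1a KO cells it fell from 1.39, 2.24 and 1.95 CPM to 0.5, 0.464 and 0.539 CPM without overlap (log2 fold change −1.87, SE 0.322, edgeR adjusted p 0.00323). In the HP1g line its log2 fold changes were 0.47 in WT and −0.50 in KO cells, with 95% intervals of −1.1 to 2.03 and −1.71 to 0.7. Bbc3, the gene of PUMA, passed in none of the 4 comparisons, and its log2 fold changes were 0.44, 0.09, 0.63 and 0.18 in HP1a WT, HP1a KO, HP1g WT and HP1g KO cells. Bid, cleaved by caspase-8 to link death receptors to mitochondria, had log2 fold changes of 0.09 to 0.20 and was the steadiest member.

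The pore-forming effectors were higher in Tconv in most comparisons. Bax had 121, 99 and 107 CPM in HP1a WT naive libraries and 176, 202 and 214 CPM in Tconv, and 110, 100 and 101 against 188, 200 and 194 CPM in HP1a KO cells. No library of either genotype overlapped between the states, and the log2 fold changes were 0.86 (SE 0.11) and 0.91 (SE 0.0699), with edgeR adjusted p-values of 0.000379 and 8.53e-05. In HP1g KO cells Bax rose from 135, 123 and 112 CPM to 169, 151 and 140 CPM (log2 fold change 0.33, SE 0.111, edgeR adjusted p 0.0419). This was lost in 5 of 6 fits that left out 1 library (edgeR adjusted p 0.051 to 0.172), all but the fit without Tconv replicate 3. It was also lost in 4 of 6 other ways of processing. Naive replicate 2 of HP1g WT cells, at 227 CPM, was above all Tconv libraries (176, 156 and 174 CPM), the other naive libraries having 116 and 118 CPM. Bak1 was low, at 1.09 to 2.31 CPM in naive cells and 1.87 to 3.79 CPM in Tconv. It was called in HP1a WT (log2 fold change 1.07), HP1a KO (1.03) and HP1g KO cells (1.16), with edgeR adjusted p-values of 0.0161, 0.0212 and 0.0209. In HP1a WT cells the call of Bak1 was lost without Tconv replicate 2 or naive replicate 3 (edgeR adjusted p 0.0646 and 0.0587). In HP1a KO cells it was lost without replicate 2 or 3 of either state (0.0554 to 0.0847), and in HP1g KO cells in all fits but that without Tconv replicate 1 (0.0579 to 0.0883).

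**Figure D2:**
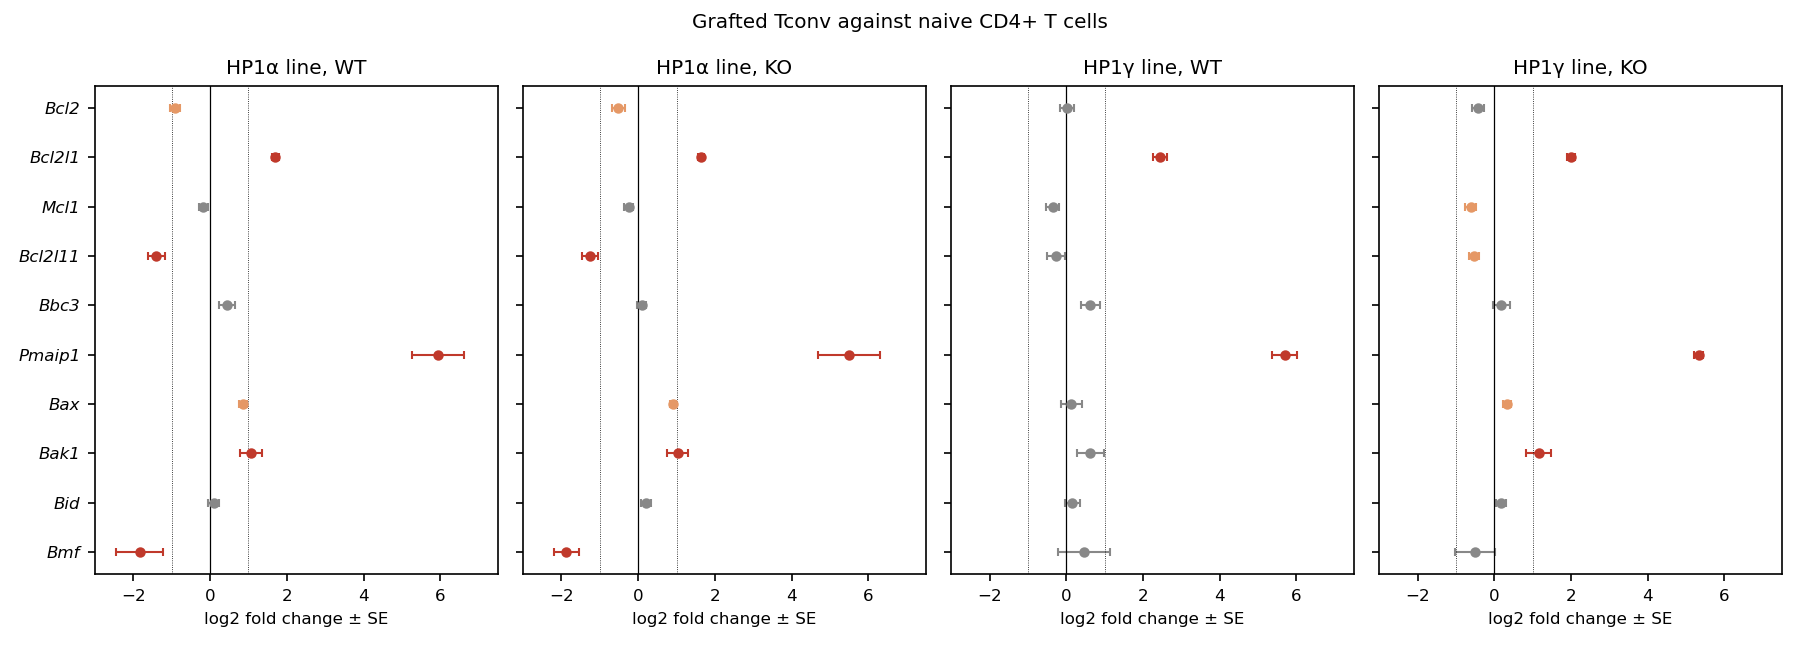
Log2 fold change of Tconv against naive cells for each member, with bars of 1 SE, in WT and KO cells of each line. Red points passed an adjusted p under 0.05 with a log2 fold change beyond the dotted lines at 1 and −1, orange points passed the adjusted p alone, and grey points neither. Pmaip1 lay between 5.33 and 5.94 and Bcl2l1 between 1.64 and 2.44 in the 4 panels.

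Averaged over lines and genotypes, 9 of 10 members passed the adjusted p, beside 55.2% of the 19700 genes tested, and 2 were called, beside 25.9%. The called members were Pmaip1 (log2 fold change 5.60, SE 0.291) and Bcl2l1 (1.93, SE 0.0846), with edgeR adjusted p-values of 3.36e-15 and 9.92e-18. Bak1 rose by 0.96, Bax by 0.55 and Bbc3 by 0.32, whereas Bmf fell by 0.95, Bcl2l11 fell by 0.87, Bcl2 fell by 0.47 and Mcl1 fell by 0.36 on the log2 scale, and Bid (0.15) did not pass. Without the replicate 1 libraries the value of Pmaip1 was 6.26, and that of Bbc3 was 0.17 and no longer passed (edgeR adjusted p 0.264). Bmf no longer passed without replicate 2 or replicate 3 (edgeR adjusted p 0.104 and 0.0686). Markers of other cells moved with activation in some groups and not in others. Erythroid genes summed to 9.92 to 178 CPM in naive groups and up to 4970 CPM in HP1g WT Tconv, yet only to 1.8 to 3.48 CPM in HP1a WT Tconv, where myeloid genes summed to 6.99 to 8.41 CPM, below the 10.1 to 14.2 CPM of HP1a WT naive cells. B cell genes summed to 6.04 to 21.4 CPM in HP1a WT Tconv and 7.15 to 8.86 CPM in HP1a WT naive cells. The 8 Treg genes summed to 131 to 227 CPM in naive and 549 to 978 CPM in Tconv libraries, and the part of these lists in the changes was not tested.

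The activation of the family did not differ detectably between genotypes. In the interaction of activation and genotype 0 of 10 members were called in the HP1a line (background 0.00587%) and 0 in the HP1g line (0.0235%). At an unadjusted p under 0.05 there were 0 members in either line by edgeR's quasi-likelihood test. Of all genes 834 of 17038 in the HP1a line and 1344 of 17024 in the HP1g line had such a p. DESeq2 called 0 members in both. For Bcl2l1 the difference of the log2 fold changes, KO minus WT, was −0.07 (95% interval −0.33 to 0.19) in the HP1a line and −0.42 (−0.84 to 0) in the HP1g line. For Pmaip1 it was −0.45 (−2.71 to 1.81) and −0.33 (−1.01 to 0.35). The interval of Pmaip1 in the HP1a line leaves room for differences larger than 1 in either direction.

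The genes around the family were taken from 5 lists, and their counts of genes that passed stand beside the 55.2% of all genes that did. Of 13 other BCL2 family genes 10 were tested in the average activation, of which 7 passed as higher and 1 as lower, with a median log2 fold change of 2 against 0 for all genes. Those named by rule were Bcl2a1d (log2 fold change 3.93) and Bcl2a1b (2.58), survival genes of the A1 cluster, the BH3-only gene Bik (2.84) and the BH3-only gene Bad (0.79). The A1 genes are near-identical copies whose reads can be shared, so their single values are uncertain. Of 17 genes of the apoptosome and the caspases 5 rose and 5 fell, with Apaf1 (1.41), the scaffold of the apoptosome, among those that rose and Endog (−0.55), a mitochondrial nuclease, among those that fell. Of 11 death receptor genes 5 rose, such as Fasl (2.27) and Tnfrsf1b (1.39), and 4 fell, such as Tnfrsf1a (−0.73) and Casp8 (−0.47).

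Of 14 genes of survival cytokine signalling 9 rose and 4 fell. Il2rb (5.64), Il2ra (3.45) and Il15ra (1.95), receptor chains of IL-2 and IL-15, rose, and Il4ra (−1.44) fell. Il7r, the receptor of the cytokine that keeps naive cells alive, had a log2 fold change of −0.10 and did not pass, and was chosen after its values were seen. Of 16 regulators of the family 5 rose and 8 fell. Among them Foxo1 (−1.30), which drives Bcl2l11 and Bbc3 in other settings, and Tsc22d3 (−1.10) fell, while Nfkb1 (1.12), a subunit of the factor that induces Bcl2l1 and the A1 genes, and Fbxw7 (1), which marks MCL1 for degradation, rose. The medians of the 4 lists other than the BCL2 family were 0.01, 0.12, 0.44 and −0.17 in the order given, against 0 for all genes.

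The effect of Treg was measured as Tconv with Treg against Tconv without, to see whether suppressed cells shift the balance of the family. In HP1a WT cells 2 of 10 members were called, both lower with Treg, against a background of 5.96% of the 15627 genes tested, or 2.43% in that direction. They were Bbc3 and Bcl2l1, a gene of death and a gene of survival. A further member, Pmaip1, fell without reaching the threshold on the fold change. The groups did not overlap for 5 of 10 members, beside 34.8% of all genes.

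Bbc3 had 29.7, 24.6 and 41.2 CPM in HP1a WT Tconv and 9.68, 11.5 and 8.22 CPM in HP1a WT Tconv with Treg. Each of the 3 libraries with Treg was below every library of the other 11 groups, the lowest of which had 17.7 CPM. The log2 fold change was −1.66 (SE 0.246, 95% interval −2.23 to −1.08, edgeR adjusted p 0.00949). Without Tconv replicate 1 it was −1.72 with an edgeR adjusted p of 0.0512, and in the other 5 fits that left out 1 library the call held. Bcl2l1 had 78.2, 79.7 and 68.8 CPM without and 44.7, 40.2 and 22.6 CPM with Treg, the last near the naive level of 16.9 to 27.2 CPM. Its log2 fold change was −1.04 (SE 0.251, 95% interval −1.63 to −0.45), with an edgeR adjusted p of 0.0498 at the very edge of the threshold. Without Tconv with Treg replicate 3, the library that stood apart, Bcl2l1 fell by 0.80 (edgeR adjusted p 0.00496), below the fold threshold, and Bbc3 fell by 1.56 (edgeR adjusted p 0.00733). In the other 5 fits that left out 1 library the adjusted p of Bcl2l1 was 0.0652 to 0.192 by edgeR, and scaling by library size alone gave 0.0792. Pmaip1 had 105, 87.9 and 123 CPM without and 66.5, 62.9 and 59.1 CPM with Treg (log2 fold change −0.71, SE 0.163, edgeR adjusted p 0.0414). It kept its adjusted p without Tconv with Treg replicate 3 (edgeR adjusted p 0.0235) and lost it in the other 5 fits (0.0746 to 0.189). Of 6 other ways of processing, 3 lost the fall of Pmaip1 as well.

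The remaining members did not pass in HP1a WT cells. Bcl2 had 220, 176 and 244 CPM with Treg, next to 235, 185 and 248 CPM without. Bcl2l11 had 48.8, 38.8 and 57 CPM with Treg, all above the 22.6 to 35.7 CPM without (edgeR adjusted p 0.0964). Mcl1 had 551, 607 and 432 CPM with Treg, all below the 644 to 755 CPM without (log2 fold change −0.37, edgeR adjusted p 0.24). Bak1 had 3.43, 3.35 and 14.6 CPM with Treg, so its log2 fold change of 1.28 (edgeR adjusted p 0.279) rested on replicate 3 and was 0.19 without it. Markers moved alongside in this group. The Treg list (8 genes, all of at least 1 CPM in both groups and none at 0) summed to 779 to 975 CPM without and 1030 to 1280 CPM with Treg. Myeloid genes summed to 6.99 to 8.41 and 23.2 to 59.6 CPM, with Elane at 0 in every library of both groups and Ly6g in those without Treg, and erythroid genes to 1.8 to 3.48 and 2.62 to 49.9 CPM. B cell genes summed to 6.04 to 21.4 and 11.3 to 39.8 CPM, and the part of any of these in the members' changes was not tested.

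Some genes of the lists around the family passed the adjusted p in HP1a WT cells. With the fold threshold as well, 1 of 11 death receptor genes and 2 of 10 other BCL2 family genes were called. So were 2 of 14 cytokine genes and 1 of 16 regulators, all beside 5.96% of all genes tested. Fas rose by 1.19 on the log2 scale with Treg (edgeR adjusted p 0.00557), as 1 of 11 death receptor genes. Of 10 other BCL2 family genes tested 2 rose, Bcl2a1d by 1.21 and the low Bcl2l15 by 2.31, the latter named after its values were seen. Of 14 cytokine genes 3 fell, Il7r by 2.34, Il4ra by 1.81 and Il2rg by 0.86. Il7r had 555 ± 89.1 CPM without and 107 ± 55.7 CPM with Treg (SD, n = 3). Of 16 regulators Myc fell, by 1.53.

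In the other 3 strata 0 of 10 members were called. The backgrounds were 0.44% in HP1a KO, 0.0126% in HP1g WT and 0% in HP1g KO cells. In the same order 1, 0 and 1 members had an unadjusted p under 0.05 by edgeR's quasi-likelihood test. So did 2551 of 16133, 1095 of 15903 and 1294 of 16991 genes tested. DESeq2 called 0 members in each. Bbc3 had 17.7, 20.8 and 21.4 CPM with Treg in HP1a KO cells, against 27, 23 and 23.1 CPM without (log2 fold change −0.27, 95% interval −0.56 to 0.02). In HP1g WT cells it had 37.3, 45.3 and 31.2 against 54.7, 36.6 and 30.1 CPM, which overlapped (log2 fold change −0.09, 95% interval −0.66 to 0.47). In the 2 HP1g KO libraries it had 29.6 and 21.6 CPM, against 38.1, 20.8 and 21.1 CPM. Bcl2l1 had 82.1, 63.5 and 76.3 CPM with Treg in HP1a KO cells, next to 74.1, 77.9 and 81.4 CPM without, and the interval of its log2 fold change was −0.31 to 0.21. In HP1g WT cells it had 87.9, 103 and 108 CPM with Treg and 125, 113 and 102 CPM without (95% interval −0.44 to 0.05). In HP1g KO cells it had 84.3 and 83.3 CPM against 96.1, 104 and 100 CPM (log2 fold change −0.26, edgeR adjusted p 0.701). Pmaip1 had log2 fold changes of −0.19, −0.01 and 0.06 in these strata. The library left out of the HP1g KO group had 12.7 CPM of Bcl2 and 9.06 CPM of Pmaip1 by library size alone, against 202 to 266 and 157 to 201 CPM in the 2 kept, and including it gave 0 calls as well.

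None of the remaining members passed with Treg in these 3 strata. Bcl2 had 287, 246 and 296 CPM with Treg in HP1a KO, 266, 261 and 372 CPM in HP1g WT and 203 and 265 CPM in HP1g KO cells. Mcl1, the most abundant survival transcript among the members, had 679, 615 and 688 CPM in HP1a KO, 1000, 788 and 832 CPM in HP1g WT and 689 and 610 CPM in HP1g KO cells. Bcl2l11 had 36.1, 50.7 and 57.4 CPM, then 66.2, 55.8 and 86.3 CPM, then 40.5 and 56.1 CPM in the same order of strata. Its log2 fold changes were 0.46, 0.12 and −0.54, and only in HP1g KO cells did the libraries with and without Treg not overlap. Bax had 196, 176 and 179 CPM with Treg in HP1a KO, 184, 170 and 175 CPM in HP1g WT and 223 and 174 CPM in HP1g KO cells. Bak1 stayed between 2.06 and 3.54 CPM in these 8 libraries. Bmf stayed between 0.15 and 0.87 CPM in them. Bid, the member with the narrowest range, had group means of 32.7 ± 5.13 CPM with Treg in HP1a WT (SD, n = 3), 29.5 ± 3.56 in HP1a KO (n = 3), 28.4 ± 3.88 in HP1g WT (n = 3) and 32.3 ± 8.58 CPM in HP1g KO cells (n = 2). Without Treg its means were 27.1, 29.9, 32.1 and 26.1 CPM in the same order, and in naive cells 25.5, 26.3, 28.6 and 23.4 CPM.

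**Figure D3:**
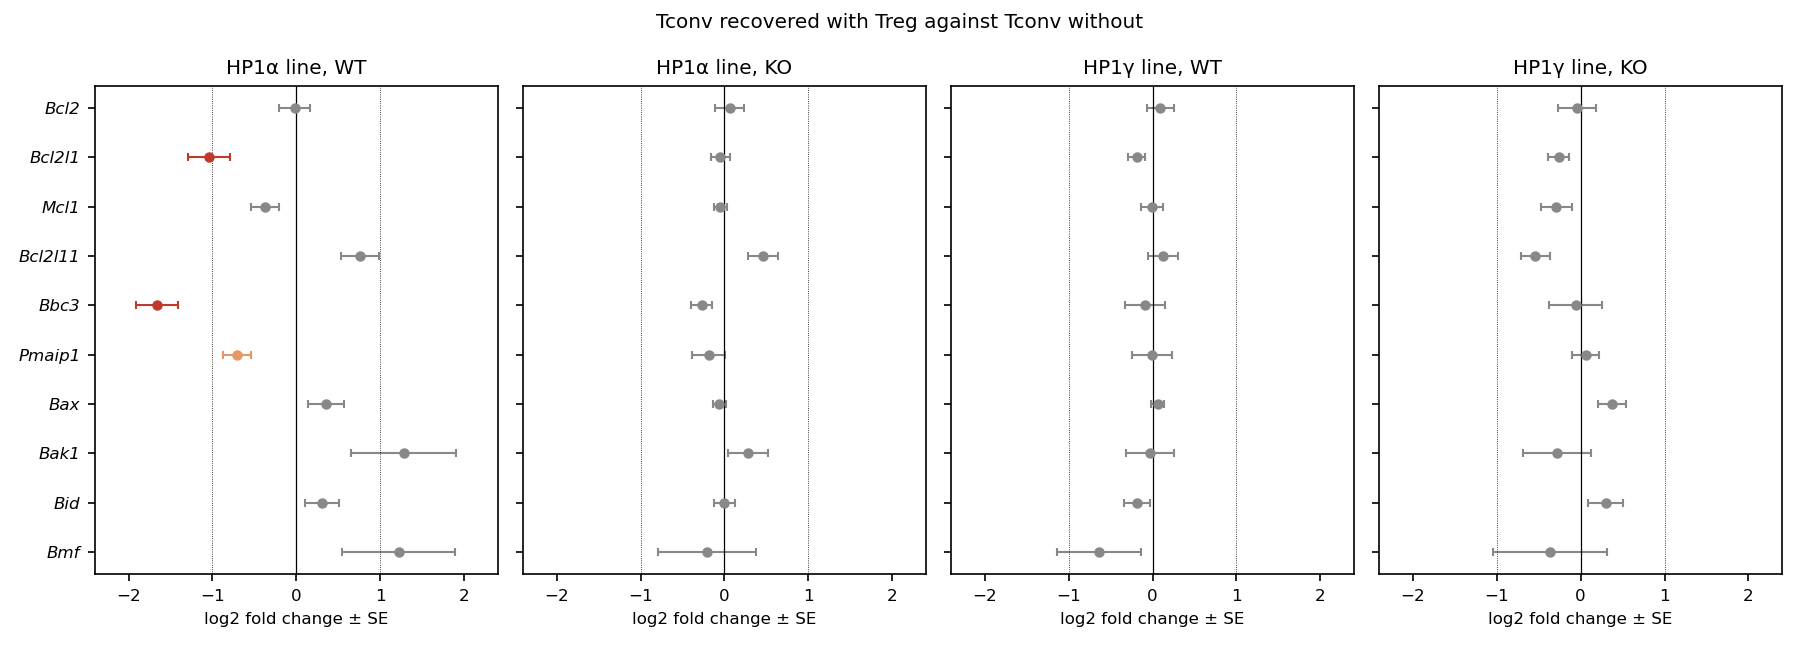
Log2 fold change of Tconv with Treg against Tconv for each member, with bars of 1 SE, in WT and KO cells of each line, with 2 libraries with Treg in HP1g KO cells. Colours are as for activation. Bbc3 (−1.66) and Bcl2l1 (−1.04) in HP1a WT cells are the red points, and no member passed in the other 3 panels.

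The differences between these Treg effects were tested directly. Between HP1a KO and WT cells the Treg effect on Bbc3 differed by 1.39 on the log2 scale (SE 0.274, 95% interval 0.79 to 1.99), KO minus WT, and did not pass over all genes (edgeR adjusted p 0.0815). It passed by DESeq2 (adjusted p 0.000602), with no filter on low counts (edgeR 0.048) and with all 35 libraries in 1 fit (edgeR 0.0392). For Bcl2l1 the difference was 0.99 (SE 0.296, 95% interval 0.34 to 1.64, edgeR adjusted p 0.241), which passed only in the fit of all 35 libraries (edgeR 0.0475). In all 0 of 10 members were called in the HP1a line (background 0.139%). By edgeR's quasi-likelihood test 2 had an unadjusted p under 0.05, beside 1675 of 17205 genes tested. In the HP1g line 0 of 10 members were called (background 0%). By the same edgeR test 1 had an unadjusted p under 0.05, beside 667 of 17833 genes, and DESeq2 called 0 members.

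Between WT cells of the 2 lines the Treg effect on Bbc3 differed, with a call at the edge of the threshold. The Treg effect in HP1a WT minus that in HP1g WT cells was −1.58 on the log2 scale (SE 0.353, 95% interval −2.35 to −0.81, edgeR adjusted p 0.0472). This was the 1 member of 10 called, against a background of 1.56%. The call was lost with the replicate number as a block (edgeR adjusted p 0.0695), with RLE size factors (0.0509), with scaling by library size alone (0.0534) and in 10 of 12 fits that left out 1 library (0.0514 to 0.149), all but those without HP1a WT Tconv with Treg replicate 2 and HP1g WT Tconv replicate 1. The same difference was −0.86 for Bcl2l1 (95% interval −1.48 to −0.24, edgeR adjusted p 0.163) and −0.71 for Pmaip1 (95% interval −1.36 to −0.06, edgeR adjusted p 0.27). Of 14 genes of survival cytokine signalling Il7r differed in this comparison, by −2.32 (edgeR adjusted p 0.0212). The lines were also separate series of libraries in the labels. The degree of suppression differed as well. The paper states that Treg, at the ratio used, did not effectively repress the response of WT cells in its HP1γ experiment. In its HP1α experiment Treg inhibited cytokine production by WT cells. Line, series and degree of suppression cannot be told apart here.

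KO and WT cells were then compared within each condition, to ask whether loss of either HP1 protein alters the family. In naive cells and in Tconv 0 of 10 members were called in the HP1a line (backgrounds 0% and 0.103%) and 0 in the HP1g line (0.00669% and 0.0437%). No member had an unadjusted p under 0.05 in these 4 comparisons by edgeR's quasi-likelihood test. Of all genes 291 of 15549 (naive) and 1324 of 15521 (Tconv) did in the HP1a line. In the HP1g line 863 of 14939 (naive) and 1349 of 16015 (Tconv) did. DESeq2 called 0 members in each comparison. In HP1a Tconv the log2 fold changes ran from −0.38 (Bbc3) to 0.28 (Bcl2). The 95% intervals were −0.13 to 0.23 for Bcl2l1, −0.19 to 0.17 for Mcl1 and −0.2 to 0.17 for Bax, so changes of 1 in size lie outside them. In HP1g Tconv the range was −0.58 (Bbc3) to 0.19 (Bak1), with Bbc3 at 38.1, 20.8 and 21.1 CPM in KO and 54.7, 36.6 and 30.1 CPM in WT libraries. In naive cells intervals were wide for the rare transcripts, as for Pmaip1 in the HP1a line (−2.03 to 2.62) and Bmf in the HP1g line (−0.5 to 2.63).

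In Tconv with Treg of the HP1a line the members lay further apart. Bbc3 had 17.7, 20.8 and 21.4 CPM in KO and 9.68, 11.5 and 8.22 CPM in WT libraries, and Bcl2l1 82.1, 63.5 and 76.3 CPM in KO and 44.7, 40.2 and 22.6 CPM in WT. Neither overlapped between the genotypes, as 5 of 10 members did not (Bcl2, Bcl2l1, Mcl1 and Bbc3 higher and Bax lower in KO), beside 21.5% of all genes. The log2 fold changes were 1 (SE 0.217, 95% interval 0.5 to 1.51) for Bbc3 and 1.03 (SE 0.266, 95% interval 0.4 to 1.65) for Bcl2l1. Over all genes 0 members were called by edgeR (background 0.123%), with adjusted p-values of 0.127 and 0.19. These 2 members had an unadjusted p under 0.05 by edgeR's quasi-likelihood test, beside 1975 of 16256 genes tested. DESeq2 called both, as did the fit of all 35 libraries, in which the edgeR adjusted p was 0.0071 for Bbc3 and 0.000548 for Bcl2l1. The shares of all genes called in these ways are not given. In the paper, which used DESeq2, far more genes differed between these groups than edgeR called here. Myeloid genes summed to 176 to 506 CPM in these KO and 23.2 to 59.6 CPM in these WT libraries, erythroid genes to 113 to 703 and 2.62 to 49.9 CPM, and the Treg list to 688 to 906 and 1030 to 1280 CPM. None of these 3 sums overlapped between the genotypes, and their part was not tested.

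With Treg in the HP1g line, KO cells had 2 libraries. The paper, with DESeq2, reports many genes overexpressed in these KO cells, so the background here is that of edgeR alone. Here 0 of 10 members were called (background 0%). By edgeR's quasi-likelihood test 2 had an unadjusted p under 0.05, beside 2028 of 17177 genes tested. DESeq2 called 0 members. Mcl1 had 689 and 610 CPM in KO libraries, next to 1000, 788 and 832 CPM in WT ones, a log2 fold change of −0.43 (edgeR adjusted p 0.385). Bbc3 had 29.6 and 21.6 CPM, next to 37.3, 45.3 and 31.2 CPM, a log2 fold change of −0.57 (edgeR adjusted p 0.392). The genotypes did not overlap for 3 of 10 members (Mcl1, Bbc3 and Bcl2l1), beside 29.4% of all genes. The difference between the lines in the KO effect on Bbc3, 1 in the HP1a line and −0.57 in the HP1g line, was not tested.

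**Figure D4:**
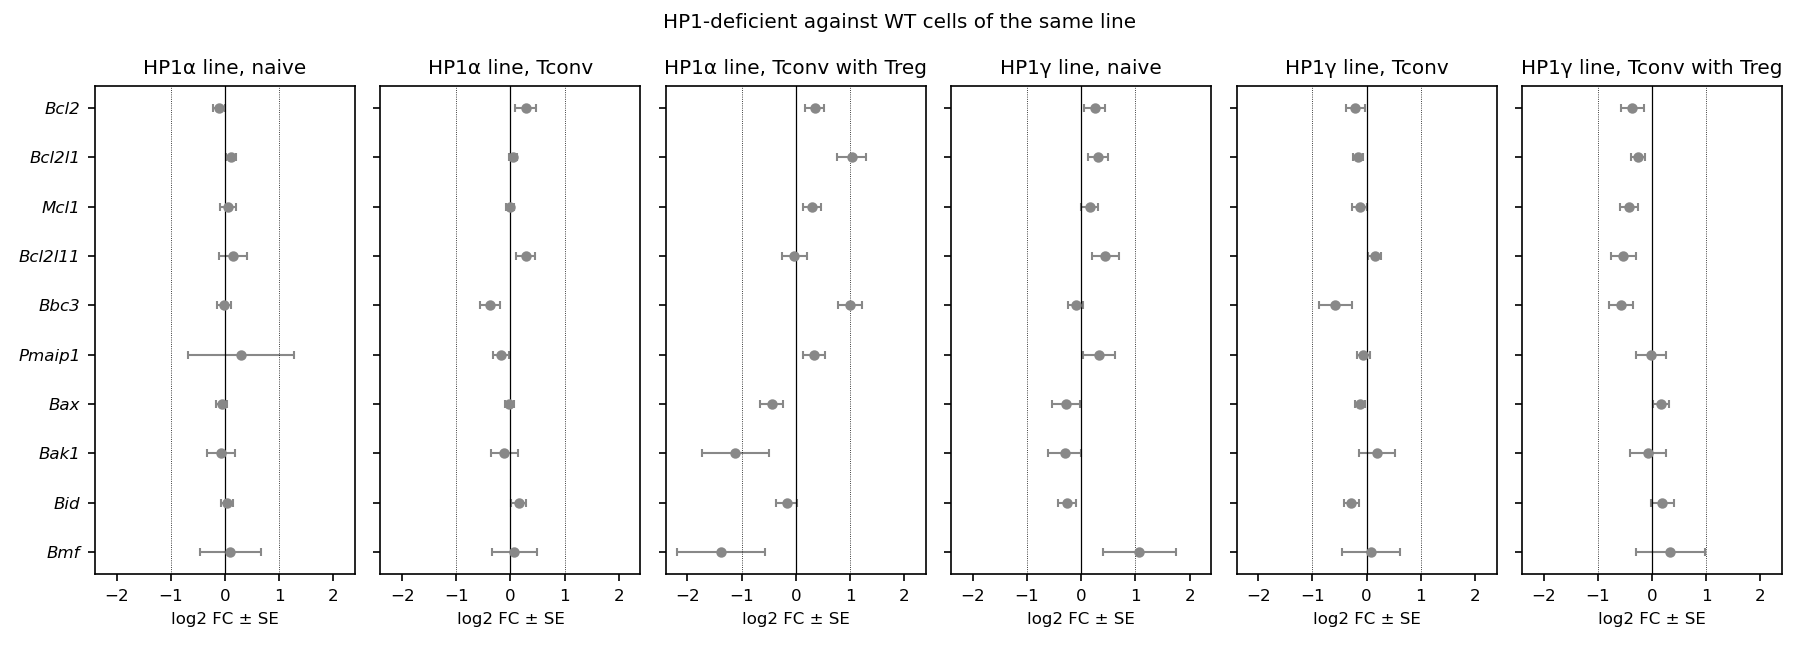
Log2 fold change (log2 FC) of KO against WT cells for each member, with bars of 1 SE, in naive cells, Tconv and Tconv with Treg of each line. No point passed an adjusted p under 0.05. The points farthest from 0 among well expressed members were Bcl2l1 (1.03) and Bbc3 (1) in Tconv with Treg of the HP1a line.

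Ratios of members within a library, chosen after their values were seen and given with no test, describe the balance in each state. They are ratios of CPM per kb, so they compare transcripts and not proteins. Bcl2l1 to Bcl2 had group medians of 0.127 to 0.193 in naive cells. It was 0.739, 0.682, 0.936 and 0.974 in HP1a WT, HP1a KO, HP1g WT and HP1g KO Tconv, with single Tconv libraries from 0.495 to 1.2. In Tconv with Treg it was 0.451 (range 0.206 to 0.507) in HP1a WT, 0.573 in HP1a KO, 0.733 in HP1g WT and 0.81 in HP1g KO cells. Bcl2l1 to Bcl2l11, survival against death, had medians of 0.425 to 0.542 in naive groups and 2.31 to 4.1 in Tconv. With Treg it was 1.42 (range 0.613 to 1.6) in HP1a WT and 2.05 (range 1.94 to 3.51) in HP1a KO cells, next to Tconv medians of 4.1 and 3.43. In the HP1g line it was 2.85 without and 2.05 with Treg in WT cells, and 2.31 without and 2.76 with Treg in KO cells. Mcl1 to Pmaip1, the pair of a survival protein and its BH3-only partner, ran the other way, with medians of 225 to 658 in naive groups and 2.86 to 6.87 in grafted groups. Bcl2 to Bcl2l11, also survival against death, did not separate the states. Its medians were 2.2 to 4.28 in naive groups, 2.37 to 5.55 in Tconv and 3 to 3.59 in Tconv with Treg.

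**Figure D5:**
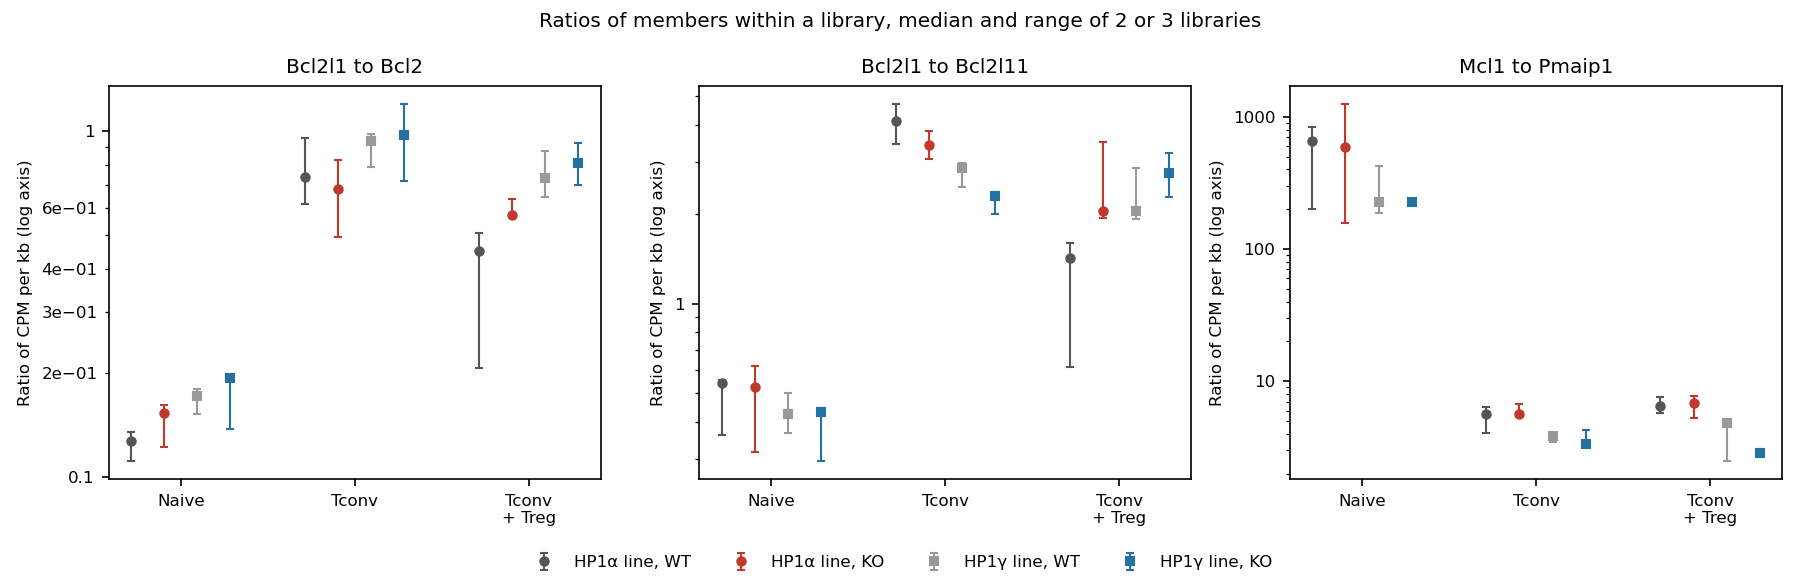
Ratios of CPM per kb (log axes) of Bcl2l1 to Bcl2, Bcl2l1 to Bcl2l11 and Mcl1 to Pmaip1 in naive cells, Tconv and Tconv with Treg, as the median of a group with bars from the lowest to the highest of its 2 or 3 libraries. The ratio of Bcl2l1 to Bcl2 was 0.127 to 0.193 in naive groups and 0.682 to 0.974 in Tconv, and HP1a WT cells with Treg had the lowest grafted value, 0.451.

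The 3 members with the widest ranges were set against 9438 other genes whose mean reached 5 CPM, by Pearson's r of log2 levels over the 12 group means. These means share the division into naive and grafted cells, so high values are common, and they are given as a description. Pmaip1 was most like Bhlhe40 (r 0.998), which encodes a transcription factor of activated T cells, Lilrb4a (0.994) and Map3k8 (0.994). Bcl2l1 was most like Sorl1 (0.989) and Rab11fip1 (0.986). Bmf, with few counts, reached only 0.886 with Ptch1, 0.878 with Mthfd1l and 0.865 with Lpp.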

How the data were processed

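Reads were run by the authors through the nf-core/rnaseq pipeline (Trim Galore, STAR and Salmon), which gave the 1 deposited table of estimated counts per gene for 36 libraries on GRCm39. Of its values 82.9% were whole numbers, and all were rounded here. Salmon shares reads among similar transcripts, so near-identical genes are uncertain. HP1g KO Tconv with Treg replicate 3 was left out, as the authors did for its GC content, exonic share and 5′-3′ bias.

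Genes were filtered with filterByExpr, scaled by TMM and tested with the quasi-likelihood test of edgeR 4.0.16 on the libraries of each comparison (all 35 for the average activation), with Benjamini-Hochberg adjustment over all genes tested. SE is the log2 fold change divided by the square root of F, and 95% intervals use the t distribution with the degrees of freedom of each gene's fit. CPM of 35 libraries were scaled together. DESeq2 1.42.0, RLE size factors, no filter, no fold threshold, 1 fit of all 35 libraries, a replicate block, the left-out library included and each library left out in turn were tried, and scaling by library size alone was added after the data were seen. The procedure was tested on simulated data. Among comparisons with at least 3 pairs, same-numbered samples deviated together (every r over 0.1) only in 2. These were HP1a KO against WT naive cells (0.29 to 0.659) and HP1g KO against WT Tconv (0.112 to 0.431), and a block changed no call in either. HP1g KO against WT Tconv with Treg had 2 pairs, with r of 0.198 and 0.384. No 2 replicates were alike within sampling noise (lowest chi-square per gene 5.93). Low counts limit the precision for Bmf (from 6 counts), Pmaip1 (from 26) and Bak1 (from 47).

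All 10 members are named. In the lists around them, up to 4 genes a list are named, those with the largest log2 fold change among genes that passed and had a mean of at least 5 CPM. A few results that the rule would name are not reported here. The members and lists were chosen with earlier results of these data known.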

Additional observations from a re-analysis of the deposited data

Results flagged for a closer look

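The Treg effect on Bbc3 differed between WT cells of the 2 lines by −1.58 on the log2 scale (HP1a minus HP1g, edgeR adjusted p 0.0472 for the difference itself). Bbc3 was lower with Treg in 3 of 3 HP1a WT libraries than in any HP1a WT library without Treg, whereas the HP1g WT groups overlapped. Without HP1a WT Tconv with Treg replicate 3, the library that stood apart, the difference was −1.46 (edgeR adjusted p 0.0601), and over the fits that left out 1 library it ran from −1.35 to −1.86. Treg genes summed to 1030 to 1280 CPM in HP1a WT and 660 to 842 CPM in HP1g WT cells with Treg, myeloid genes to 23.2 to 59.6 and 93.5 to 117 CPM, and erythroid genes to 2.62 to 49.9 and 156 to 3460 CPM. The part of these lists in the difference was not tested. Line, library series and the degree of suppression by Treg cannot be told apart in it.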

How the results depend on the processing

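Without the threshold on the fold change, 6 members passed for activation in HP1g KO cells and 9 for the average activation. Scaling by library size alone left 1 member called for the Treg effect in HP1a WT cells (Bbc3). The shares of all genes that the alternatives called are not given beside their calls. For KO against WT in HP1a Tconv with Treg, DESeq2 and the fit of all 35 libraries each called 2 members. For the Treg effect by genotype in the HP1a line, DESeq2, no filter on low counts and the fit of all 35 libraries each called 1. For the Treg effect by line, RLE size factors, library size alone and the replicate block each called 0. Leaving out 1 library gave 3 to 5 calls for activation in HP1a WT, 4 to 5 in HP1a KO, 2 in HP1g WT and 2 to 3 in HP1g KO cells. It gave 0 to 1 calls in HP1a WT cells for the effect of Treg (0 without Tconv replicate 1), 0 to 1 for the Treg effect by line, and 2 to 4 for the average activation (4 without replicate 1). No result was reversed. Of 35 member results that passed, DESeq2 lost 1, RLE size factors 1, no filter 2, library size alone 4, the replicate block 4 and all 35 libraries 4 of 26. Scaling by library size shifted the median of all genes by −0.14 for activation in HP1a WT cells. With few counts, only large changes of Bmf could be detected.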
